A study of Rattus norvegicus with 218 samples.

Results

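Single neurons of the vagal dorsal motor nucleus (DMV) of rats were set against small pools of the same neurons from the same animals, to describe for each gene how its detection and its level changed with the number of cells in a sample. Members were all samples labelled 1 cell and all samples labelled 4 or 5 cells with a threshold cycle (Ct) in 42 or more assays, from animals that had both, after a repeat run had been averaged with its first run. This gave 98 single neurons and 56 pools, 154 of the 213 samples in the series. They came from 9 adult male Sprague Dawley rats, namely 2 naive rats without surgery, 4 sham rats that had ketamine and xylazine anesthesia and exposure of the femoral vessels without ligation, and 3 rats with remote ischemic preconditioning (RIPC) that had the same anesthesia and ligation of both femoral arteries. The labels name more sham animals than the methods give for a cohort, and the labels were followed, so the number of replicates rests on them. Sham and RIPC tissue was taken 2.5 hours after reperfusion or the matching time. Neurons were picked for NeuN, a nuclear protein of neurons, by laser capture from brain stem sections of 10 µm, so a sample held what the section left of each cell body and any neighbouring material lifted with it.

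The DMV holds the preganglionic parasympathetic motor neurons of the vagus nerve, which use acetylcholine and project to the gut, heart and other viscera. Its neurons receive inhibitory, excitatory, aminergic and peptidergic inputs and differ in which receptors for these they carry. Ct counts the amplification cycles needed to reach a set fluorescence, so a lower Ct means more transcript, and a missing Ct means that the transcript lay below the limit of detection. A transcript present in nearly every neuron should give a Ct in nearly every sample of either type and a level that grows with the number of cells. A transcript present in few neurons is missed in most single cells, and a pool finds it when 1 of its cells carries it. Level is given as minus Ct, in cycles, where 1 cycle is a doubling of template, and it was averaged only over samples with a Ct. Each panel gene has 1 assay apart from Htr1a, Ptgs1 and Ptgs2 with 2 each, and amplification efficiency differs between assays, so levels were compared within a gene and never between genes.

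Of the 9 animals, 1 went against its cell-number labels in the samples that entered. In RIPC animal 1, pools of 4 or 5 had Ct values in 43 to 74 assays (mean 56.2 ± 12.6, SD, n = 6) and single neurons in a mean of 80.5 ± 36.7 (n = 4, lowest 44), and the reference level, the median minus Ct of the 35 most widely detected genes, was -15.49 in its pools and -14.00 in its single neurons. Among samples that entered, all other animals had more assays and a higher reference level in pools. With no limit on assays, RIPC animal 3 also had fewer in pools, 67 against 73.5 in single neurons. Whether the labels, the capture or the RNA of RIPC animal 1 account for its lower values in pools was not tested. The counts of calls and the main tests below are therefore given with RIPC animal 1 (9 animals) and without it (8 animals). It was set apart after these values had been seen, and for running against the other animals, so every p and count of calls without it is conditional on that choice and is not independent support for a rise in pools. Values marked n = 9 include it. Naive animal 3 gave 54 of the 98 single neurons, RIPC animal 3 gave 1 pool, and sham animal 3 gave 1 single neuron, whose share for any gene is thus either 0 or 100%. Animals were the replicates and each counted equally.

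Pools held more detectable transcripts than single neurons. Single neurons had a Ct in 44 to 149 assays (median 69) and pools in 43 to 124 (median 98.5). The mean over animals was 69.6 ± 6.15 assays in single neurons and 90.5 ± 14.8 in pools (SD, n = 9), higher in pools in 8 of 9 animals (exact sign-flip permutation test over animals, two-sided, p = 0.0195; smallest possible 0.00391). Without RIPC animal 1 it was 68.2 ± 4.9 and 94.8 ± 7.67 (n = 8), a gain of 26.6 assays, given with no test because the animal was set apart for this measure. The ranges of the 2 sample types were apart only in sham animal 3, with its 1 single neuron, and 12 of 56 pools had fewer assays than the median single neuron, 5 of them from RIPC animal 1. With no limit on assays, single neurons averaged 62 and pools 82.9 assays over the 9 animals, higher in pools in 7 of 9 (exact p = 0.0391). Without RIPC animal 1 they averaged 61 and 87.8, higher in pools in 7 of 8. The share of samples that reached 42 assays was 81.5% ± 18.3 for single neurons and 83.7% ± 20.4 for pools (exact p = 0.781, n = 9).

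**Figure D1:**
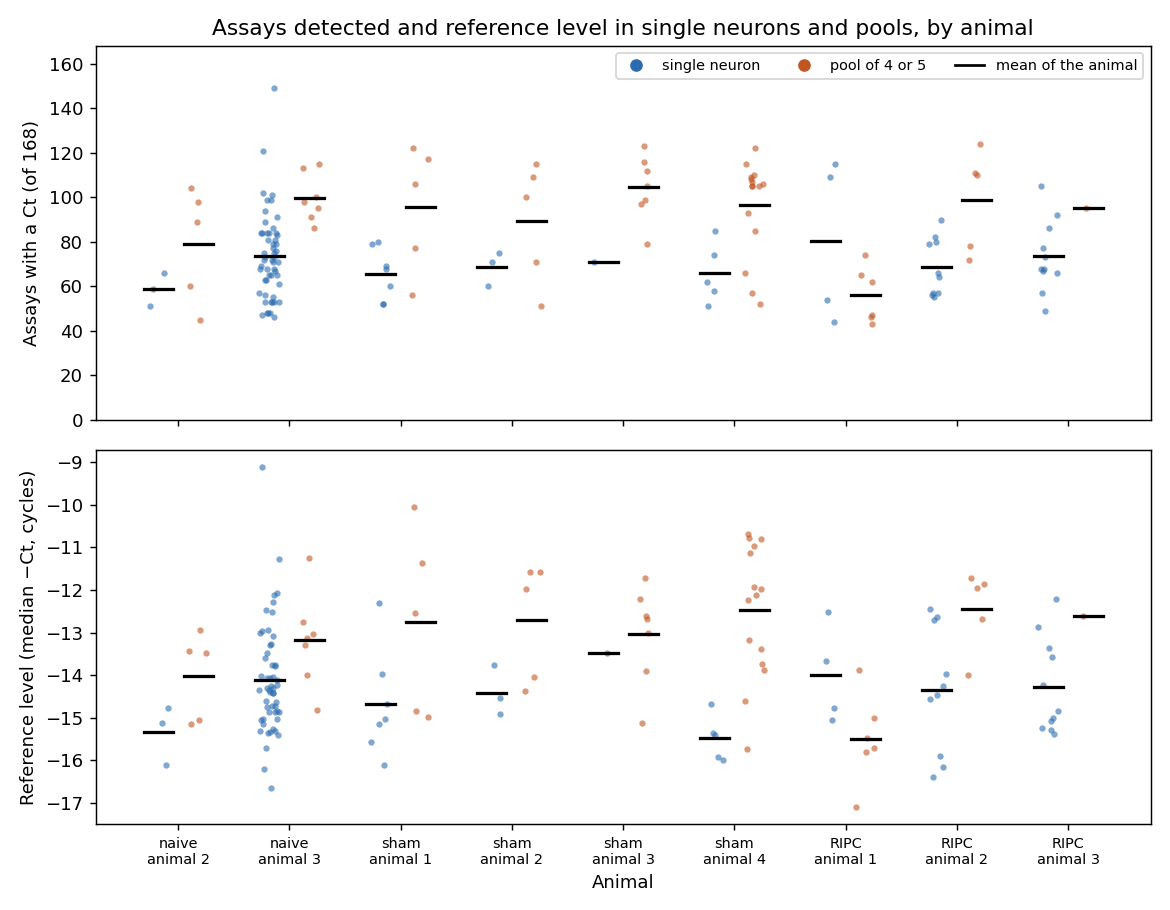
Assays with a Ct (top) and reference level in cycles (bottom) for each single neuron and each pool of 4 or 5, by animal; points are samples and black bars the mean of the animal. Pools lay above single neurons on average in every animal except RIPC animal 1, where the means were 56.2 assays in pools and 80.5 in single neurons.

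The reference level rose with cell number, by less than the count of cells alone would give. Over animals it was -14.45 ± 0.63 cycles in single neurons and -13.19 ± 0.99 in pools (SD, n = 9), a rise of 1.26 cycles (exact p = 0.0234), and the rise was 1.61 ± 0.76 cycles without RIPC animal 1 (n = 8, given with no test for the same reason). Equal cells would add 2 cycles from 1 to 4 cells. Across all cell numbers, the slope within an animal averaged 0.59 ± 0.54 cycles per doubling of the labelled cell number (n = 9, exact p = 0.0156) and 0.73 ± 0.37 without RIPC animal 1 (n = 8), with the slopes of those 8 animals between 0.08 and 1.34. The median number of assays was 69 in samples of 1 cell, 91.5 for 2 cells, 93 for 3, 98 for 4 and 99 for 5. These medians are over samples of all animals, with 12 samples of 2 cells from 7 animals, and are not paired by animal.

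**Figure D2:**
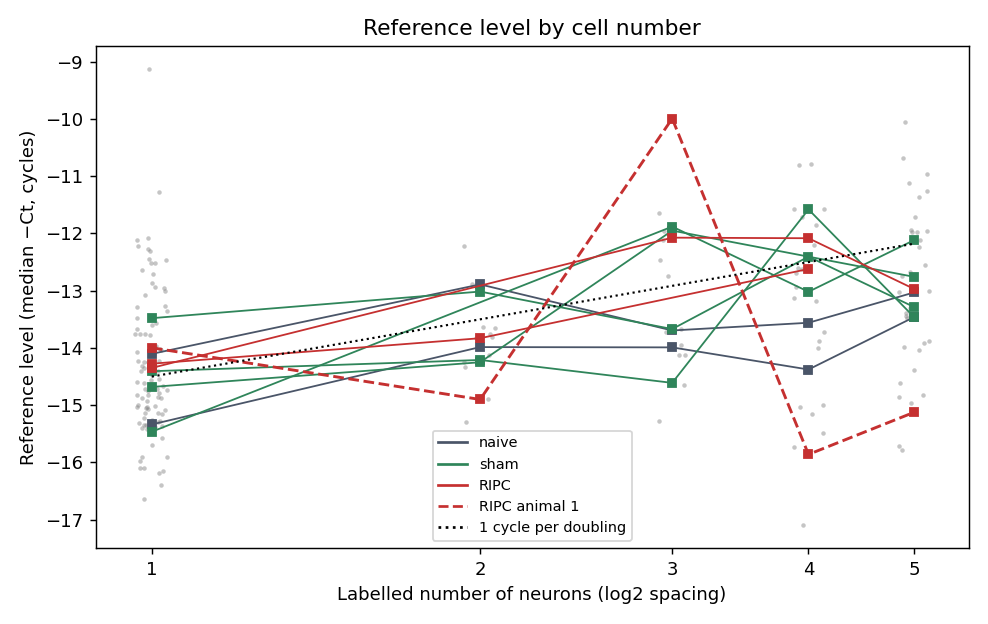
Reference level (median minus Ct of 35 widely detected genes, in cycles) against the labelled number of neurons; grey points are samples, coloured squares the mean of an animal at that number, and the dotted line a rise of 1 cycle per doubling from the single-neuron median of -14.50. RIPC animal 1 (dashed) had its lowest values at 4 and 5 cells, while the other animals rose at a mean of 0.73 cycles per doubling.

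The neuronal identity of the samples was checked on genes of most neurons. Camk2a, a calcium-dependent kinase subunit of neurons, had a Ct in 95 of 98 single neurons, Scn2a, a voltage-gated sodium channel, in 94, Eno2, the neuronal enolase, in 92 and Rgs4, a regulator of G protein signalling, in 85. In pools these genes had a Ct in 50, 56, 47 and 50 of 56. Of the markers listed for astrocytes, microglia and oligodendrocytes only Gfap, an intermediate filament of astrocytes, was on the panel. Per the methods, captures with visible non-neuronal cells had been discarded. Gfap nevertheless had a Ct in 79 of 98 single neurons and 40 of 56 pools, and its part in the other results was not tested.

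The mean share of samples with a Ct was higher in pools for most genes tested, but with 9 animals 1 of these differences passed the threshold, and no gene passed with a lower share. Of 131 genes with a Ct in 10% to 95% of the samples, 85.5% had a higher mean share in pools, with a median difference of 17 percentage points. With 9 animals, 1 gene passed an adjusted p of 0.05, 0.763% of those tested (limma on within-animal differences with Benjamini-Hochberg adjustment), while 40 had an unadjusted p under 0.05, all of them higher in pools. Without RIPC animal 1, 26 of 129 genes passed, 20.2%, all higher in pools, and the median difference over the genes tested was 20.1 points. Among the 26, Trpv1 and Pparg reached the limit of 10% of samples only through the pools. No gene passed with a lower share in pools in either set. Left out in turn, RIPC animal 3, with its 1 pool, raised the count from 1 to 28, of which 14 were among those 26, and sham animal 3 raised it to 5. The single-to-pool difference was not found to depend on treatment, with 0 of 131 genes past the moderated F test of limma over naive, sham and RIPC and 3 with an unadjusted p under 0.05.

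The gene past the threshold with 9 animals was Grpr, the receptor of gastrin-releasing peptide. Its share among an animal's single neurons ran from 0% through a median of 33.3% to 60%, and among pools from 60% through 73.3% to 100%. The share was higher in pools in 9 of 9 animals, 30.5% ± 21.4 against 75.2% ± 12.9 (SD, difference 44.7 points, SE 9.62, limma adjusted p = 0.0243), and 28.1% against 76.3% without RIPC animal 1 (adjusted p = 0.0116). Pools of 2 or 3 neurons, of which 26 entered from the same 9 animals, had it in 75.6%. In naive animal 3 it was found in 16 of 54 single neurons (29.6%, 95% Wilson interval 19.1 to 42.8) and 6 of 7 pools (85.7%, 48.7 to 97.4), where independent draws of cells from that animal would give 80.7%. The intervals cover counting error only. Its level did not follow its detection, with a Ct of 17.7 ± 0.41 in single neurons and 18.2 ± 1.18 in pools over the 4 animals with enough values (SD; raw level adjusted p = 0.563). The call for detection of Grpr was lost when naive animal 2, naive animal 3, sham animal 1 or sham animal 2 was left out, with adjusted p up to 0.114 and a difference of 42.8 to 44.5 points.

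**Figure D3:**
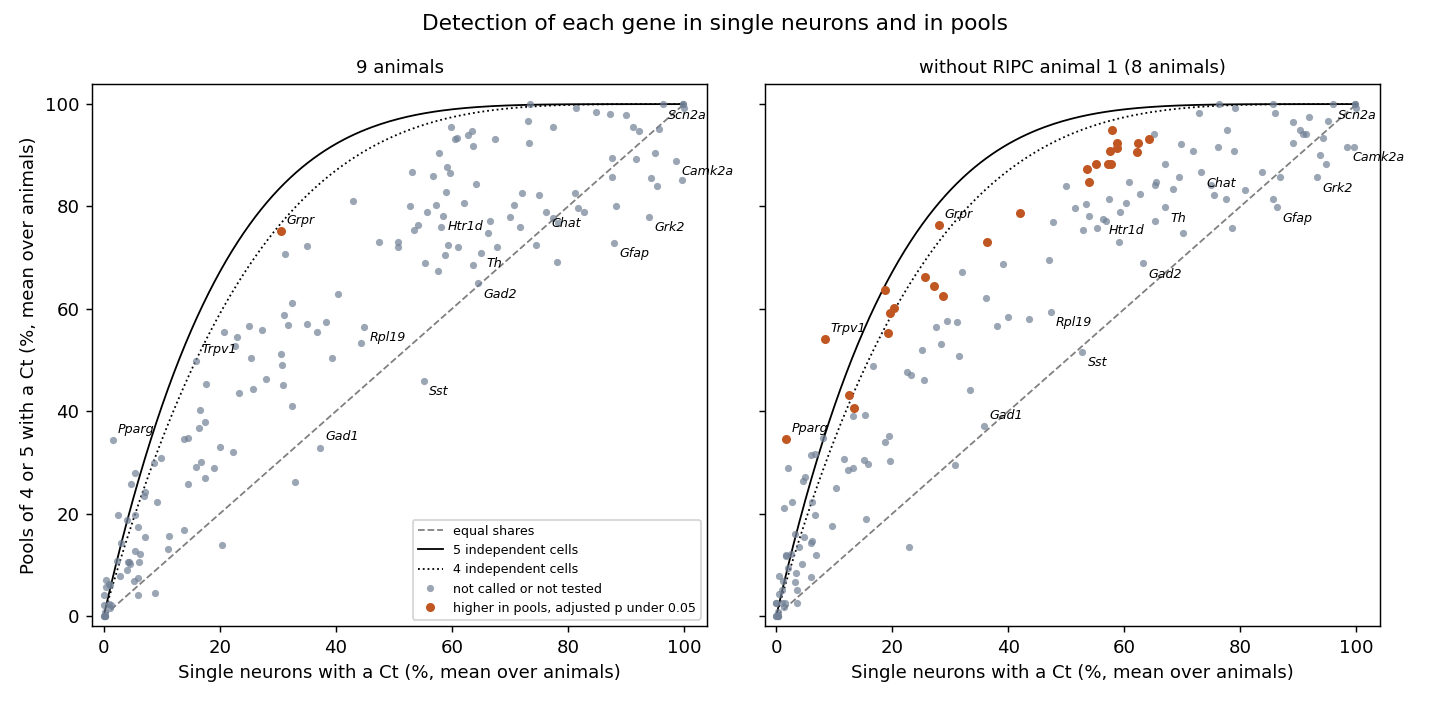
Share of pools of 4 or 5 with a Ct against the share of single neurons with a Ct, per gene, as means over 9 animals (left) and without RIPC animal 1 (right); the dashed line marks equal shares, and the curves the share that 4 or 5 independent cells would give. Grpr is the 1 coloured gene at left, 26 genes are coloured at right, and Gad1, Sst, Gfap and Camk2a lie on or under the line of equal shares at left.

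Of the 165 genes, 65 had a Ct in under 25% of single neurons on average. The class was set by that share, so its gain in pools is a description. Their median share was 5.93% in single neurons and 15.7% in pools, against 37.3% and 57.4% over all 165 genes. The 5 with the largest share in pools were Adra1b, Tacr1, Htr6, Npff and Trpv1, and none passed the threshold with 9 animals, at adjusted p of 0.149, 0.0640, 0.0640, 0.0600 and 0.0798. Adra1b, Tacr1, Htr6 and Npff passed without RIPC animal 1, and Trpv1 is given there with no p. In that animal each of the 5 had a lower share in pools than in single neurons. They were picked for their share in pools and are described on the other 8 animals.

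Trpv1, the capsaicin receptor known from sensory neurons, was found in 8.48% of single neurons and 54.1% of pools, higher in 8 of 8 animals. In those 8 animals it passed the limit of 10% of samples only through the pools, so no p is given for it there. Over all 9 animals its share ran from 0 to 75% in single neurons, the 75% being RIPC animal 1, and from 16.7% to 100% in pools. Adra1b, an alpha-1 adrenergic receptor, was found in 18.7% and 63.7% (adjusted p = 0.0191, 7 of 8 animals). Tacr1, the substance P receptor, was found in 20.3% and 60.2% (adjusted p = 0.0304, 7 of 8).
Htr6, a serotonin receptor that raises cyclic AMP, was found in 19.6% and 59.2% (adjusted p = 0.0191, 8 of 8), and the peptide precursor Npff in 19.2% and 55.2% (adjusted p = 0.0191, 8 of 8). Counted over samples, Trpv1 had a Ct in 25 of 56 pools and Htr6 and Npff in 28 each. In 6 of the 8 animals 40% to 46.7% of pools held Trpv1, and its mean includes RIPC animal 3, whose 1 pool counted as 100%, as it did for the other 4 genes.

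Pparg, a nuclear receptor of lipid metabolism, was the rarest of the 26 genes. It was named after its values had been seen. It had a Ct in 3 of 98 single neurons and 16 of 56 pools, and its share was higher in pools in 9 of 9 animals, from a median of 0% to a median of 28.6%. The mean share was 1.71% and 34.5% in the 8 animals, where independent cells with the single-neuron share would give 6.66%. It passed the limit of 10% of samples only through the pools, so no p is given for it. The 34.5% includes the 1 pool of RIPC animal 3, which counted as 100%.

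**Figure D4:**
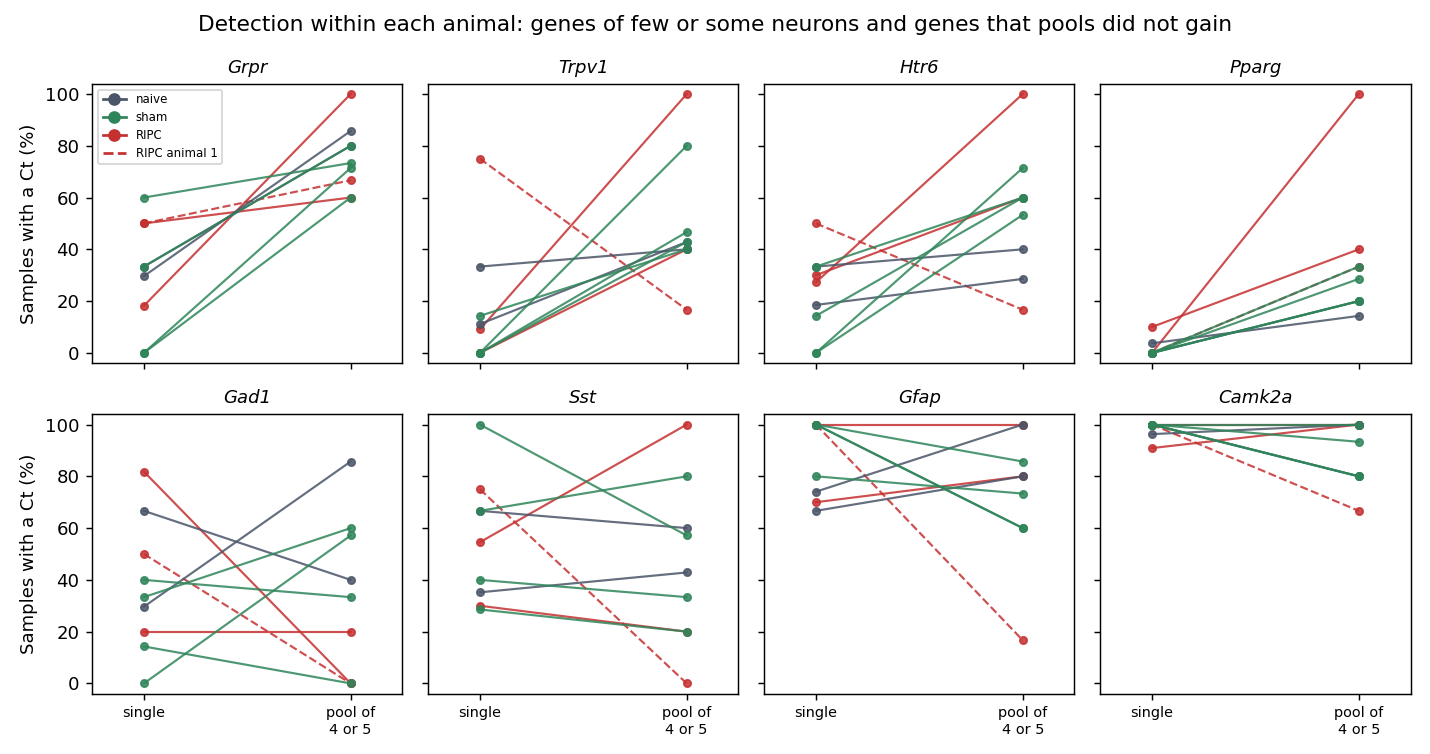
Share of samples with a Ct in single neurons and in pools of 4 or 5 for 8 genes, each line an animal coloured by treatment, with RIPC animal 1 dashed. Grpr and Pparg went up in all 9 animals, Trpv1 and Htr6 in all but RIPC animal 1, and Gad1, Sst, Gfap and Camk2a show no common direction.

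Serotonin receptors were the family with the most calls. Of 10 on the panel, 9 were tested, all 9 had a higher share in pools, and 6 passed without RIPC animal 1 (Htr1a, Htr1b, Htr1f, Htr3b, Htr6 and Htr7), beside 20.2% of all genes tested; none passed with 9 animals. Their median difference without that animal was 30.7 points, against 20.1 points over all genes. Htr1a, an inhibitory receptor and the most widely detected of them, was found in 63.6% ± 26 of single neurons and 91.8% ± 14.1 of pools (n = 9). Htr2b had a Ct in 1 of 54 single neurons of naive animal 3 and in no other sample, a mean over animals of 0.206% of single neurons.

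Other receptor families held fewer calls without RIPC animal 1, to be read beside the 20.2% called over all genes tested, and none is set apart by its count. There were 2 of 6 GABA receptor subunits (Gabrb2 and Gabre), 1 of 7 tested acetylcholine receptors (Chrm1, the M1 muscarinic receptor), 1 of 4 adrenergic receptors (Adra1b), 1 of 2 tested opioid receptors (Oprk1, the kappa receptor), 1 of 4 somatostatin receptors (Sstr3) and 1 of 7 tested gut hormone and leptin receptors (Cckbr, the gastrin and cholecystokinin receptor). None of 4 histamine receptors and neither tested dopamine receptor passed. Drd1, a dopamine receptor that raises cyclic AMP, was found in 81.4% ± 14.5 of single neurons and 99.3% ± 2.22 of pools (n = 9), and Drd3 in 4.02% ± 7.6 and 9% ± 13.8.

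Among ion channels, the pore subunits of high-voltage-activated calcium channels had no call in detection, with 0 of 4 tested passing and a median difference of -3.33 points over 9 animals and 1.46 without RIPC animal 1. Cacna1e was found in 95.7% ± 11 of single neurons and 95.2% ± 8.01 of pools (n = 9), and Cacna1c in 18.9% ± 20 and 28.9% ± 31.5. Of the 3 T-type subunits, which open at low voltage, 1 passed without RIPC animal 1, Cacna1h (57.6% to 88.3%, adjusted p = 0.0304; 56.8% to 85.9% and 0.0571 with 9 animals). None of the 4 HCN pacemaker channels passed, and Hcn2 was at 94.3% ± 13.2 in single neurons and 85.6% ± 19.4 in pools (n = 9), and at 93.6% and 90% without RIPC animal 1. Of 9 tested neuropeptide and hormone genes 1 passed (Npff), of 5 tested activity genes 1 (Cebpd), and of 3 tested regulators of G protein signalling none. Over all genes tested 20.2% passed, so the counts for these channels and lists set none of them apart.

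At the other end, 30 genes had a Ct in 75% or more of single neurons on average, with a median share of 89.1% in single neurons and 89.1% in pools. Actb, the cytoskeletal actin, was the 1 gene with a Ct in all 98 single neurons, and Gapdh and Ldha, both of glycolysis, were missed in 1 each and in no pool. Crebbp, a transcriptional coactivator, and Camk2a followed, with 96 and 95 of 98. Of the 25 genes of this class that were tested, 11 had a higher and 14 a lower share in pools, and none passed the threshold with either set of animals.

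Several of these genes were missed in pools more often than in single neurons, though none past the threshold. Crebbp was at 99.6% ± 1.24 in single neurons and 85.2% ± 21.6 in pools (n = 9, adjusted p = 0.264). Camk2a was at 98.6% ± 3.13 and 88.9% ± 12.5 (adjusted p = 0.411), Eno2 at 95.4% ± 7.63 and 84.1% ± 18.7 (adjusted p = 0.366), and Grk2, a kinase of G protein-coupled receptors, at 93.9% ± 13.1 and 78% ± 26.5 (adjusted p = 0.272). The pools without these transcripts had fewer detected assays than the rest in the median. The 6 pools without Camk2a had 51 to 74 assays (median 58), against a median of 98.5 over all 56 pools. The 8 without Crebbp had a median of 49, against 104.5 in the rest, and came from 5 animals, 4 of them from RIPC animal 1. Pools of 2 or 3 neurons had a Ct for Camk2a and Eno2 in 100% of samples, for Grk2 in 94.4% and for Crebbp in 92.6%, as means over animals. Without RIPC animal 1 the pools of 4 or 5 held Camk2a in 91.7%, Crebbp in 91.7%, Eno2 in 88.3% and Grk2 in 85.7%, against 98.4%, 99.5%, 94.8% and 93.2% of single neurons.

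Mean levels were higher in pools for most genes tested, but with 9 animals no difference passed the threshold. Of 84 genes with values in at least 4 animals, 79 had a higher mean level in pools, with a median of 1.26 cycles. With 9 animals none passed, 0% of the 84, at a smallest adjusted p of 0.0583 (limma), with 30 at an unadjusted p under 0.05. Without RIPC animal 1, 67 of 81 passed, 82.7%, all higher in pools, with a median of 1.69 cycles. The 81 include reference genes, whose median was used to set that animal apart. The 5 genes with the smallest p over all animals were Grk2, Oxtr, Hrh4, Cacna1d and Gabra2, all at an adjusted p of 0.0583. RIPC animal 1 had too few values for Grk2, Cacna1d and Gabra2, so their differences rest on the same animals in both sets. Cacna1d, not a reference gene, passed without RIPC animal 1, and the others are reference genes, for which no call is given there. Oxtr, the oxytocin receptor, was higher in pools in each of the 7 animals with values, by 1.21 to 5.15 cycles (median 1.98), from a Ct of 15.0 ± 1.55 to 12.7 ± 0.55. Hrh4, a histamine receptor, was also higher in 7 of 7, RIPC animal 1 included, by 0.84 to 3.34 cycles.
Grk2 was higher in 6 of 6 animals by 1.13 to 4.17 cycles, while its mean share with a Ct was lower in pools. Cacna1d, an L-type calcium channel subunit, was higher in 6 of 6 by a median of 2.75 cycles, and Gabra2, a GABA-A receptor subunit, in 5 of 5 by 2.15.

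The rise without RIPC animal 1 was 1.73 cycles (SE 0.40) for Scn2a, 1.77 (SE 0.36) for Gapdh, 1.30 (SE 0.48) for Actb and 2.74 (SE 0.59) for Camk2a. These are reference genes, whose median was used to set that animal apart, so no p is given for them without it. With that animal the rises were 1.12, 1.42, 0.38 and 1.21 cycles, and none passed (limma adjusted p = 0.184, 0.0973, 0.695 and 0.417). In RIPC animal 1 Camk2a fell by 7.95 cycles from single neurons to pools, Eno2 fell by 6.87 and Actb fell by 5.13.

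Genes with detection between the extremes had a wider range of level differences without RIPC animal 1. There, 29 of the 30 genes of most neurons passed, with a median rise of 1.96 cycles and a range of 1.30 to 3.13. Of the 51 genes detected in 25% to 75% of single neurons, 38 passed. The median over these 51 was 1.49 and the range -0.18 to 2.86. Over all genes tested there, 67 of 81 passed, 82.7%, and with RIPC animal 1 included none of 84 did. Both classes include reference genes, whose median was used to set that animal apart, so these counts are a description. No gene found in under 25% of single neurons had values in enough animals. In 5 of 7 animals the median rise was larger among genes of most neurons than among those between; it was smaller in sham animal 2 and RIPC animal 1. Across the 81 genes, which share the samples, the share of single neurons with a Ct and the level difference correlated at r = 0.456 (rho = 0.512) without RIPC animal 1 and at r = 0.264 (rho = 0.252) over 84 genes with it.

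**Figure D5:**
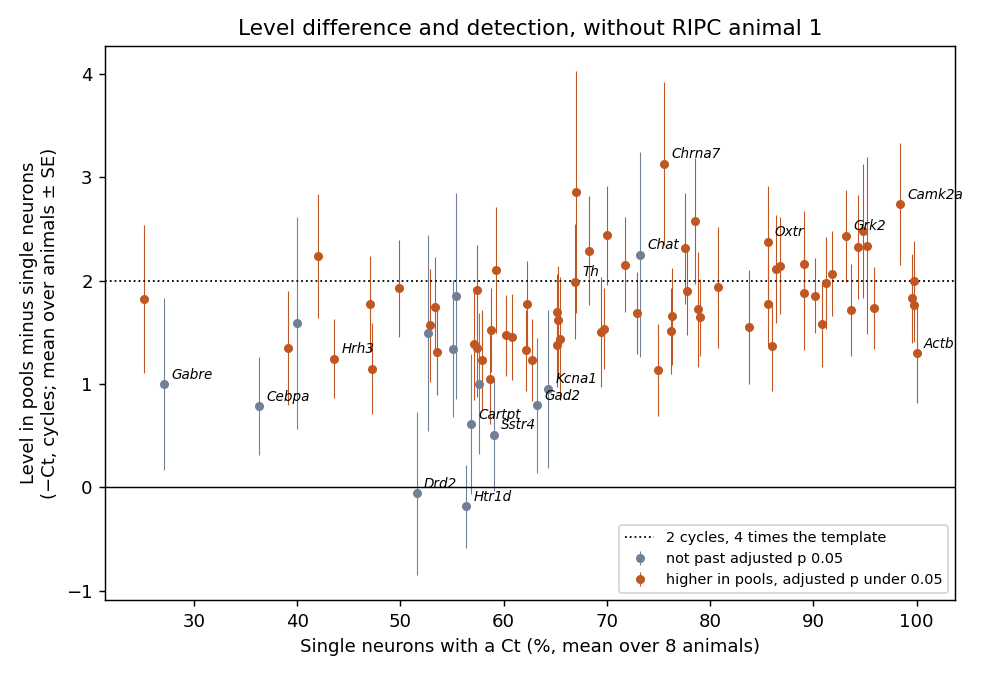
Mean level in pools minus single neurons (minus Ct, cycles, ± SE) against the share of single neurons with a Ct, for 81 genes without RIPC animal 1. Genes near 100% lie between 1.30 and 2.74 cycles, while Htr1d and Drd2, detected in 56.4% and 51.6% of single neurons, lie at -0.18 and -0.06.

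Htr1d, an inhibitory serotonin receptor, and Drd2, an inhibitory dopamine receptor, were the 2 genes whose mean level was not higher in pools without RIPC animal 1. Htr1d was found in 58.4% of single neurons and 78.2% of pools (n = 9, adjusted p = 0.198), at a Ct of 13.5 ± 1.03 and 13.9 ± 0.75 over 6 animals. Drd2 was found in 54.2% and 76.4% (adjusted p = 0.167), at a Ct of 15.7 ± 1.15 and 16.5 ± 3.04. They were also the genes with the smallest p once each sample had been centred on its reference level, at -1.92 and -2.12 cycles relative to the reference genes, ahead of Cacna1h (-1.31), Hrh3 (-1.14) and Scn1a (-0.89). No centred level passed the threshold (0 of 84, smallest limma adjusted p = 0.473, 7 with an unadjusted p under 0.05). Without RIPC animal 1 it was 0 of 81, with a smallest limma adjusted p of 0.0807 and 8 with an unadjusted p under 0.05. No gene was thus shown to change relative to the 35 reference genes. Hrh3, a histamine receptor of nerve endings, was higher in raw level in 5 of 5 animals by 0.96 to 1.74 cycles, and Scn1a, a sodium channel, in 5 of 5 by a median of 1.94.

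The transmitter genes of the DMV differed between these patterns. Chat, the enzyme that makes acetylcholine, was found in 68 of 98 single neurons, at 57.1% to 100% by animal, and 45 of 56 pools, at 16.7% to 100%, with means of 76.2% and 78.9% (adjusted p = 0.883; 73.3% and 86.7%, adjusted p = 0.300, without RIPC animal 1). Its level was 2.25 cycles higher in pools (SE 1.02) over 6 animals, and higher in 5 of 6, but did not pass (limma adjusted p = 0.140). The differences ran from -0.73 through a median of 1.04 to 8.00 cycles, the last in sham animal 4, and the mean raw level of Chat was 1.10 cycles higher without that animal (adjusted p = 0.275). Ache, the enzyme that breaks acetylcholine down, was found in 87.6% and 89.5% (adjusted p = 0.882). Its level was 0.99 cycles higher in pools (adjusted p = 0.409). Without RIPC animal 1 it was 2.16 cycles higher, given with no p because Ache is a reference gene.

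Gad1 and Gad2, which make GABA, did not pass in pools. Gad1 was found in 35 of 98 single neurons and 21 of 56 pools, at means of 37.3% ± 25.8 and 32.9% ± 30.8, higher in pools in 3 of 9 animals and lower in 5 (adjusted p = 0.822), and at 35.7% and 37% without RIPC animal 1. Independent cells with each animal's single-neuron share would give 73.9%. Naive animal 3 differed from this mean, with Gad1 in 16 of 54 single neurons and 6 of 7 pools, where independent cells would give 80.7%. Gad2 was found in 64.6% ± 24.8 and 65% ± 24 (adjusted p = 0.974), and in 63.2% and 68.9% without RIPC animal 1 (adjusted p = 0.684). Its level was 0.11 cycles higher in pools (adjusted p = 0.893), and 0.80 without RIPC animal 1 (adjusted p = 0.269). A Ct for Chat together with one for Gad1 or Gad2 was seen in 27 of 98 single neurons and 34 of 56 pools, at means of 49.7% ± 31.5 and 61.6% ± 26.5 of an animal's samples (exact p = 0.406, n = 9; 46.6% and 67.3%, exact p = 0.141, without RIPC animal 1). A single neuron with both is 1 captured cell by its label, whereas in a pool the transcripts can come from different cells.

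Of the catecholamine enzymes, Th, which makes the dopamine precursor, was found in 65.1% ± 22.6 of single neurons and 71% ± 31.4 of pools (adjusted p = 0.709), and in 66.9% and 79.9% without RIPC animal 1 (adjusted p = 0.300), with a level 1.99 cycles higher in pools (SE 0.64, 5 of 6 animals, adjusted p = 0.0847, and 0.0115 without RIPC animal 1). Dbh, which turns dopamine into noradrenaline, was found in 17.6% ± 14.8 and 45.3% ± 31 (adjusted p = 0.137, and 0.0506 without RIPC animal 1). Gfap was at 87.9% ± 14.8 in single neurons and 72.9% ± 25.6 in pools (adjusted p = 0.330), and at 86.3% and 79.9% without RIPC animal 1 (adjusted p = 0.582), while its level was 2.11 cycles higher in pools, in 6 of 6 animals (adjusted p = 0.0583, and 0.00775 without RIPC animal 1). The ribosomal gene Rpl19 was found in 44.8% ± 24.7 of single neurons and 56.5% ± 27.4 of pools (adjusted p = 0.386).

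For most genes the pools of 4 or 5 held the transcript less often than independent cells would give, taking 1 minus the chance that each of its 4 or 5 cells lacked it. Over 9 animals this was so for 123 of 165 genes, and without RIPC animal 1 57 genes lay above. With pools of 2 or 3 cells 74 of 165 lay below, so the majority did not hold there. By class, and without RIPC animal 1, 26 of 30 genes of most neurons and 49 of 70 between lay below, against 31 below and 32 above among the 65 genes of few neurons. With 9 animals 27 of 30, 54 of 70 and 42 of 65 lay below. For genes of most neurons the independent share had a median of 99.8% without RIPC animal 1. Almost any missed pool puts such a gene below, so their count was nearly fixed in advance. Sst, the somatostatin precursor, was found in 52.7% of single neurons and 51.7% of pools, where independent cells would give 91.4%, and over 9 animals the values were 55.2%, 45.9% and 92.3%. Where an animal gave few single neurons, this calculation comes out too low on average, and it carries no test.

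Genes without a Ct bound what this depth can show. Oxt and Rgs1 had none in any of the 154 samples; 0 of 98 single neurons allows a share of samples with a Ct of up to 3.06%, and 0 of 56 pools up to 5.36%. These limits cover counting error over samples only, not the spread between animals, and concern detection, not expression. Nppb had a Ct in pools and in no single neuron, and 3 genes had one in single neurons and in no pool.

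The spread between individual samples was not shown to be smaller in pools. The median over genes of the SD between samples of 1 animal, after centring, was 1.29 ± 0.17 cycles in single neurons and 1.24 ± 0.19 in pools over the 7 animals with 3 or more values of each type (exact p = 0.641), and 1.30 and 1.19 without RIPC animal 1 (n = 6, exact p = 0.313). Before centring it was 1.5 and 1.66 cycles (exact p = 0.25, n = 7), and 1.48 and 1.65 without RIPC animal 1 (exact p = 0.281, n = 6).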

How the data were processed

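Quantitative PCR of laser-captured neurons was deposited by the authors as a table of Ct values, not normalized, with no value where a transcript lay below the limit of detection (unit: Ct, other than counts). Per the methods, lysates were reverse transcribed, pre-amplified for 22 cycles and read on microfluidic chips with EvaGreen, and samples were allocated to chips at random; the sources used here do not say which chip held which sample. Of 218 columns, 5 repeat runs were averaged with their first run, and the second assay of 3 genes with the first, giving 165 genes. Samples below 42 assays were left out. Animals were paired with themselves, since 1 animal gave both types. Shares and mean levels per animal were compared with limma 3.58.1 in R 4.3.3 on pool minus single neuron, with Benjamini-Hochberg adjustment at 0.05 over all genes tested, and single values with exact two-sided sign-flip permutation tests. Detection was tested for genes with a Ct in 10% to 95% of samples; level for genes with 2 samples of each type in 4 animals. Genes were named by a rule: those past 0.05 per test (with none, the 5 smallest p), all panel genes of 6 lists apart from an item not reported here, and the most detected genes of few and of most neurons. Members, lists and genes were chosen with earlier results of these data known. Scripts were tested on simulated data. Averaging over detected samples leaves out the lowest levels, and pre-amplification of little template makes late Ct values noisy. Alternatives are given with the closing observations.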

Additional observations from a re-analysis of the deposited data

Results flagged for a closer look

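Among 66 sets of animal values of 4 to 10 animals, 15 held a value far from the others by Dixon's criterion. Its nominal rate of 1 set in 20 is for independent sets of continuous values. These sets share animals and samples, and shares hold ties, so the count is not set against that rate. Of these, 8 came from RIPC animal 1. Its pools had fewer assays than its single neurons (difference -24.3). Its level difference from single neurons to pools was -7.95 cycles for Camk2a, -6.87 for Eno2, -6.00 for Ache, -5.13 for Actb, -2.56 for Scn2a and -2.52 for Crebbp, and its detection difference for Crebbp was -66.7 percentage points.

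The other 7 values were as follows. Htr1d had a detection difference of -57.1 points in sham animal 3, which gave 1 single neuron. Scn2a had one of 20 points in sham animal 4, where 4 of 5 single neurons had a Ct. Actb had one of -6.67 points in sham animal 4, where 14 of 15 pools had a Ct. Gapdh and Ldha each had one of 1.85 points in naive animal 3, where for each of them 53 of 54 single neurons had a Ct. For Actb, Gapdh and Ldha every other animal had the same share in both sample types, so any miss was flagged. In naive animal 2 the level difference was 5.15 cycles for Oxtr and -0.19 for Rpl19.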

How the results depend on the processing

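The call counts depended strongly on the setting, and no gene passed with lower detection or lower raw level in pools, nor with any centred level, under any setting run (limma or the Cochran-Mantel-Haenszel test). The number of genes with higher detection in pools, 1 as reported, was 0 with 84 or more assays (4 animals left), 5 with no limit on assays, 22 with all pools of 2 or more cells, 29 with pools of 2 or 3, 0 with a Ct above 20 taken as below detection, 12 with 2 or more samples of each type per animal, 3 in naive, 8 in sham and 0 in RIPC rats alone, and 0 on the left and 17 on the right side. It was 37 with animals weighted by their samples, 13 with the arcsine square root of the share, 3 with no filter on genes and 45 with the Cochran-Mantel-Haenszel test over samples, which counts samples and not animals. Leaving out each animal in turn gave 0 to 28 genes for detection and 0 to 67 for raw level, the latter number without RIPC animal 1. Without the pairing by animal (no replicate block), 17 genes passed for detection and 36 for raw level. Genes with a higher raw level, 0 as reported, numbered 6 with no limit, 11 with all pools, 4 with pools of 2 or 3, 14 with late Ct values removed, 1 on the right side (9 genes tested) and 27 with undetected values set to the highest Ct, where the raw level of Cacna1h was 3.81 cycles higher in pools (adjusted p = 0.0332, limma), against -0.18 cycles as reported. Levels could not be fitted with 84 assays or within a treatment, for want of animals.

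The gain in assays and in reference level kept its direction under every setting run. It lost the threshold with 2 or more samples of each type (19.1 assays and 1.32 cycles, 7 animals, exact p = 0.0625 for both) and on the left side (12.9 and 1.19). It also did so with 84 assays (12.4 and 1.6) and in naive (23.3 and 1.12), sham (28.6 and 1.76) and RIPC rats alone (9.20 and 0.69), where 2 to 4 animals cannot reach 0.05. Leaving out an animal gave 19.4 to 26.6 assays and 1.05 to 1.61 cycles. At 84 assays the share of samples that passed was 44.5 points higher in pools (exact p = 0.0117). With 1 animal left out, the share of samples passing the filter differed by -3.81 (without sham animal 2) to 8.69 points at a limit of 42 assays. The difference in spread of level between samples turned from -0.05 to 0.0186 cycles with late Ct values removed, and ran from -0.11 to 0.0141 (without RIPC animal 2) with 1 animal left out. Fewer genes, 74 of 165, lay below the independent-cell share with pools of 2 or 3. Of 763 detection values for single genes, 63 not past the threshold changed sign, as did 23 of 497 raw levels. Precision was limited by the number of animals and by unequal sampling, since 54 of 98 single neurons came from 1 rat. Levels leave out samples without a Ct.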
